A study of Mus musculus with 4 samples.

Results

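The genes described here are 42 genes of the TGF-β and BMP pathway, taken from the deposited table by gene symbol. All 42 symbols matched 1 row each of the 53379 genes in the table, and all 42 rows are protein-coding. RNA was sequenced from ILC3s (group 3 innate lymphoid cells) of the small intestinal lamina propria of mixed bone marrow chimeric mice, in 2 Brg1-sufficient and 2 Brg1-deficient libraries. The Brg1-sufficient donors were Thy1.2 Rag1-/-Smarca4 f/f mice and the Brg1-deficient donors were Thy1.1 Thy1.2 Rag1-/-Smarca4 f/f mice that also carried a Cre transgene, so both carried the floxed Smarca4 allele and lacked T and B cells of their own. Equal numbers of marrow cells of both donors were given to irradiated Rag2-/-Il2rg-/- hosts, which lack ILCs, and the cells were sorted 6 to 7 weeks later as Thy1.2 high CD45 low cells. The congenic marker Thy1.1 was carried by the Brg1-deficient donors only, so the marker and the genotype cannot be told apart. The methods call the 2 libraries of a group biological duplicates, and the p-values below measure the spread between them.

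TGF-β, activins and BMPs are secreted dimers that bring together type I and type II receptor kinases at the cell surface. TGF-β and activin receptors phosphorylate SMAD2 and SMAD3, and BMP receptors phosphorylate SMAD1, SMAD5 and SMAD9, after which these enter the nucleus with SMAD4. SMAD6, SMAD7, SKI, SKIL, TGIF1, TGIF2 and the SMURF ubiquitin ligases restrain the pathway. In the intestine, TGF-β is known for its effects on tissue residency and plasticity of innate lymphoid cells.

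Levels are given in FPKM (fragment counts scaled to transcript length and to mapped fragments), as the authors deposited them. Ranked by size, the values of the 4 libraries nearly coincided, so a change in total RNA would not be seen in them, and the depth of the libraries is unknown. In the following, the Brg1-sufficient libraries are called controls. The Brg1 gene Smarca4 was at 17.1 and 16.7 FPKM in controls, against 9.98 and 9.03 FPKM (log2 fold change -0.77, standard error 0.164, adjusted p = 0.153 by limma). RNA of Smarca4 was thus still present in the sorted Brg1-deficient cells, at 56.2% of the control mean. This value covers the whole gene, so it does not measure how far the floxed part was deleted. The paper reports efficient loss of Brg1 in ILC3s taken directly from the Rag1-/- knockout mice, by flow cytometry and real-time RT-PCR. All 10 markers of an ILC3 list, among them Il22, Il23r and Kit, were at 6.94 FPKM or more in every library. Markers listed for other cell types differed between the groups as well, and their part in the results was not tested. Of 10 ILC2 markers, 9 were lower without overlap in Brg1-deficient ILC3s, and the summed level of the list was 428 and 216 FPKM in controls against 117 and 141 FPKM, while Hpgds was higher. Of 10 ILC1 and NK cell markers, 6 were lower in the same way and Itga2 was higher, with sums of 133 and 255 FPKM against 91.8 and 59.2 FPKM. Of these 6, Eomes and Klra8 were at 0.73 FPKM or less in every library. Tbx21 was at 4.21 and 6.04 FPKM in controls against 1.28 and 0.90 FPKM. Ncr1 was at 31.3 and 35.5 FPKM against 5.37 and 6.02 FPKM, and Ifng at 22.8 and 37.3 FPKM against 3.42 and 3.22 FPKM. The paper describes NKp46+ILC3s as expressing T-bet, encoded by Tbx21, and IFN-γ. It reports a smaller share of NKp46+ILC3s among Brg1-deficient ILC3s in chimeras of this kind, so these genes are not particular to other cells. Of 10 T cell markers, 5 were lower, with sums of 251 and 151 FPKM against 148 and 135 FPKM. Of all genes tested, 20.2% were lower without overlap. The summed level of 10 epithelial markers was 5.75 and 7.1 FPKM in controls against 20.7 and 17.1 FPKM. For B cells the sums were 33.3 and 27.1 FPKM against 36.6 and 50.7 FPKM, for dendritic cells 141 and 138 FPKM against 127 and 144 FPKM, for mast cells 12.4 and 10.9 FPKM against 8.71 and 9.15 FPKM, and for fibroblasts 11.7 and 13.7 FPKM against 15.4 and 12.1 FPKM. Without overlap, 1 B cell marker was lower (Cd79b) and 1 was higher (Ighm). Of dendritic cell markers 4 were lower, among them Zbtb46 and Ccr7, and 1 (Batf3) was higher. Of mast cell markers 3 were lower and 2 higher, of fibroblast markers 0 and 3, and of epithelial markers 2 and 4. Higher without overlap were 24.4% of all genes tested. The ILC2 gene Il13 was at 0 in both Brg1-deficient libraries, and no marker was at 0 in all 4 libraries. In RNA of a sorted population, fewer cells of a type and less RNA per cell cannot be told apart.

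In Brg1-deficient ILC3s, the ligand gene Bmp2 was at 9.84% and the co-receptor gene Eng at 29.5% of their mean in controls. Smad7, Ski, Tgfbr1 and Tgfb1 were at between 51.9% and 65.7% of the control mean. These 6 genes passed the looser of the study's criteria, which it set for gene ontology and which are called the list criteria here, namely p under 0.05 before and under 0.4 after adjustment, more than 5 FPKM on average in 1 of the groups at least, and group means that differ by more than 0.5 in log2. None of the members passed these criteria in the other direction. Of the 15 members that reached this level, 6 (40.0%) were lower by the criteria, and of all genes at that level 7.08% were lower and 6.25% were higher. Of the 6, 3 (Bmp2, Eng and Smad7) reached 5 FPKM through the controls only, so the level itself depends on their difference.

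Of the 42 members, 24 averaged more than 1 FPKM in at least 1 group and were tested, 4 of them with a mean above 1 in 1 group only (Inhba, Acvr1, Acvrl1 and Ltbp3). None of the members (0 lower, 0 higher) passed an adjusted p of 0.05 in limma, with p-values adjusted by Benjamini-Hochberg over all 14739 genes tested, of which 0.224% were lower and 0.0814% higher at this level (0.305% in all). At an unadjusted p under 0.05, 6 members were lower and 1 was higher, and in all genes tested 6.47% were lower and 6.12% were higher. Both Brg1-deficient libraries were below both controls in 11 of the 24 members (20.2% of all genes tested) and above both in 4 (24.4% of all genes tested), which is 15 members without overlap where 44.6% of all genes had none. The median log2 fold change was -0.19 for the 24 members and 0.03 for all genes tested. Without Brg1-deficient library 2 it was -0.04 for the members, it was -0.29 without Brg1-deficient library 1, and it was -0.37 without Brg1-sufficient library 2. The list criteria called 2 members, Bmp2 and Eng, without either of the Brg1-sufficient libraries, and 0 without either of the Brg1-deficient libraries.

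**Figure D1:**
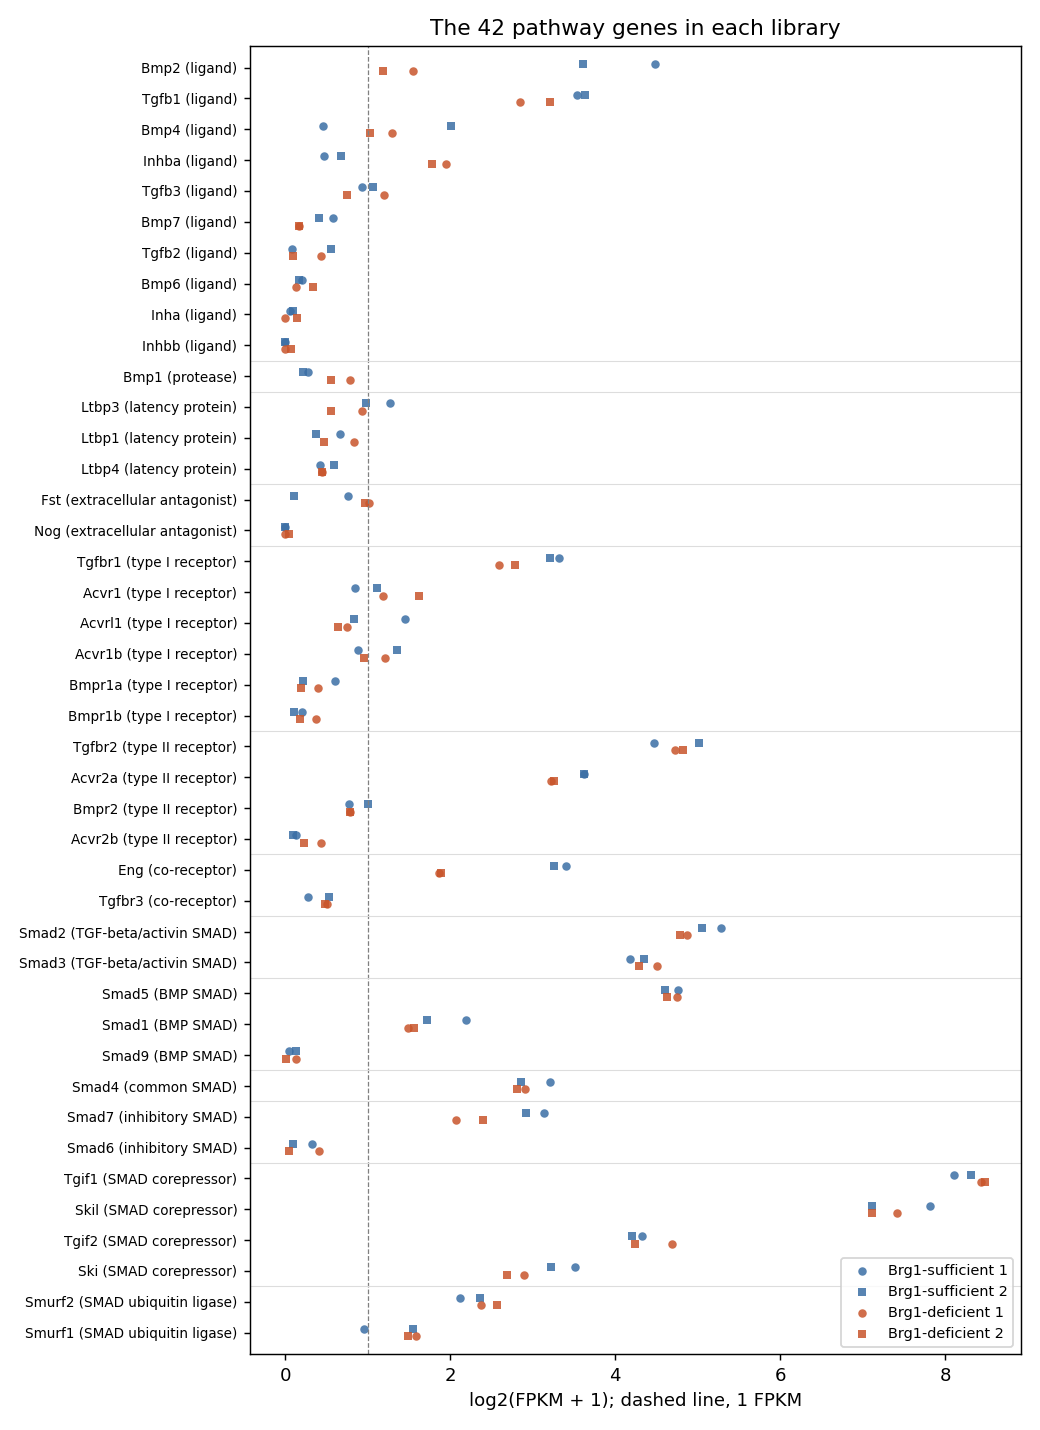
Level of the 42 pathway genes in each of the 4 libraries on the log2(FPKM + 1) scale, grouped by role, with the dashed line at 1 FPKM. Tgif1 and Skil are the highest genes, above 100 FPKM in every library, and 15 genes are below 1 FPKM in every library.

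**Figure D2:**
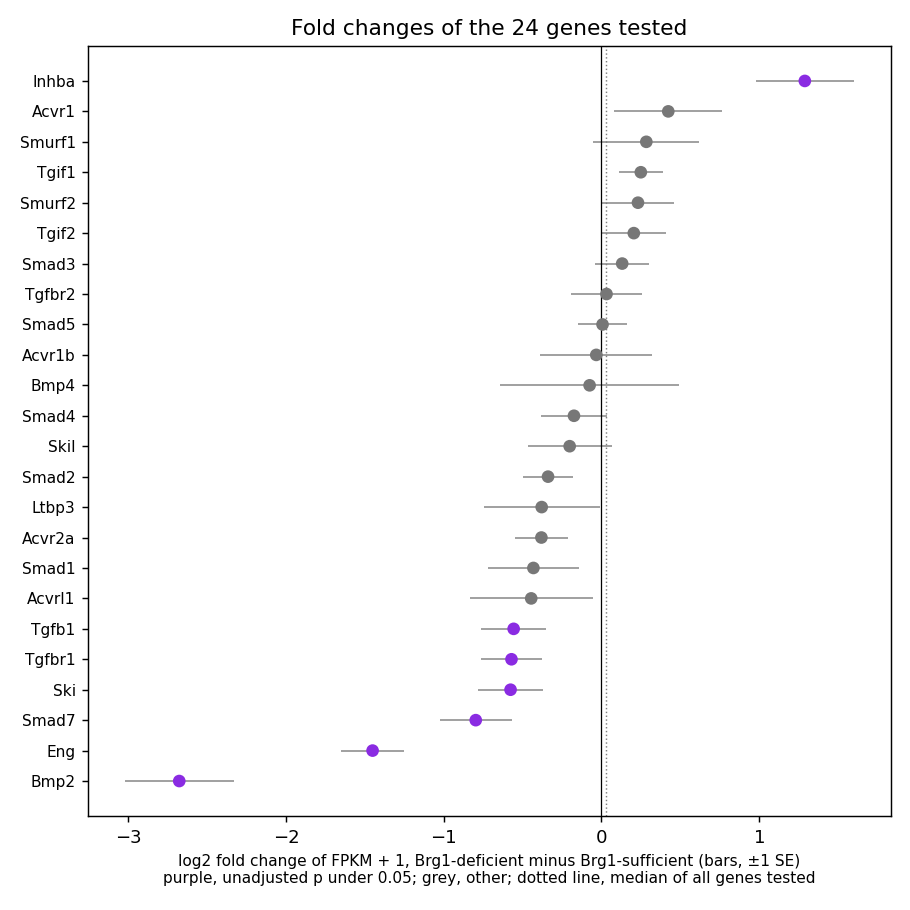
Difference in log2(FPKM + 1) between Brg1-deficient and Brg1-sufficient ILC3s for the 24 pathway genes tested, with bars of 1 standard error to each side and 2 libraries in each group. The difference is -2.68 for Bmp2 at the lower end and 1.29 for Inhba at the upper end, and the 7 purple points have an unadjusted p under 0.05.

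Among the ligands, Bmp2 and Tgfb1 were the only genes with a mean above 5 FPKM in either group. Bmp2 encodes a BMP that signals through BMP type I receptors and SMAD1, SMAD5 and SMAD9. Its level was 21.3 and 11.2 FPKM in controls, against 1.92 and 1.27 FPKM in Brg1-deficient ILC3s. The control libraries differed from each other, and both stood far above both Brg1-deficient libraries. The means were 16.2 ± 7.15 and 1.595 ± 0.46 FPKM (SD, n = 2 each), or a 10.2-fold higher level in controls. Bmp2 thus differed by -2.68 in log2(FPKM + 1), Brg1-deficient minus control (standard error 0.345, adjusted p = 0.0677 by limma). The difference was -2.24 without Brg1-sufficient library 1, the library with the highest sum of ILC2 markers. The part of ILC2 transcripts in the difference of Bmp2 was not tested. Bmp2 lies on chromosome 2 of GRCm38 from 133552159 to 133562885, and no other annotated gene overlaps it.

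Tgfb1, which encodes the TGF-β that predominates in immune cells, was at 10.6 and 11.4 FPKM in controls, against 6.17 and 8.29 FPKM in Brg1-deficient ILC3s. The groups did not overlap, though the Brg1-deficient libraries were further apart than the controls. For Tgfb1 the log2 fold change came to -0.56 (standard error 0.206, adjusted p = 0.366 by limma), and it was -0.37 without Brg1-deficient library 1. Inhba encodes the βA subunit of activins and inhibins. Its level was low in both groups, at 0.39 and 0.60 FPKM in controls, against 2.86 and 2.44 FPKM in Brg1-deficient ILC3s. Both Brg1-deficient libraries stood above both controls, and the mean was 5.35-fold higher. On the log2(FPKM + 1) scale, which understates changes of low genes, the difference was 1.29 (standard error 0.312, adjusted p = 0.191 by limma). With log2(FPKM + 0.1) it was 2.23. Inhba did not reach the mean of 5 FPKM that the list criteria ask for, and it passed the level for testing through the Brg1-deficient group only. Its partner Inha, the inhibin α subunit, was at 0.11 FPKM or less in every library, and Inhbb, the βB subunit, was listed at 0 in all but Brg1-deficient library 2 (0.05 FPKM).

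The other ligands were at 3.02 FPKM or less in every library. Bmp4 was at 0.38 and 3.02 FPKM in controls, against 1.45 and 1.04 FPKM in Brg1-deficient ILC3s, so that the controls lay on either side of the other group. Tgfb3 was at 0.91, 1.09, 1.30 and 0.68 FPKM in the order Brg1-sufficient 1 and 2 and Brg1-deficient 1 and 2. Bmp7 was at 0.49 and 0.33 FPKM in controls, against 0.12 FPKM in both Brg1-deficient libraries. Tgfb2 and Bmp6 stayed between 0.06 and 0.47 FPKM. None of Tgfb2, Tgfb3, Bmp6, Bmp7, Inha and Inhbb reached the level for testing.

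Around the ligands, the latent TGF-β binding proteins, which hold TGF-β in the matrix, were low. Ltbp3 was at 1.41 and 0.97 FPKM in controls, against 0.91 and 0.47 FPKM in Brg1-deficient ILC3s, without overlap, though the nearest libraries of the groups were closer than the 2 libraries of either group. Ltbp1 and Ltbp4 were between 0.30 and 0.78 FPKM. Bmp1, a protease that processes matrix proteins and is not itself a TGF-β family ligand, was at 0.21 and 0.16 FPKM in controls, against 0.73 and 0.47 FPKM in Brg1-deficient ILC3s. Of the antagonists, Fst (follistatin, which binds activins) was at 0.70, 0.08, 1.03 and 0.96 FPKM in the same order of libraries. Nog, which encodes the BMP antagonist noggin, was listed at 0 in all but Brg1-deficient library 2 (0.03 FPKM).

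**Figure D3:**
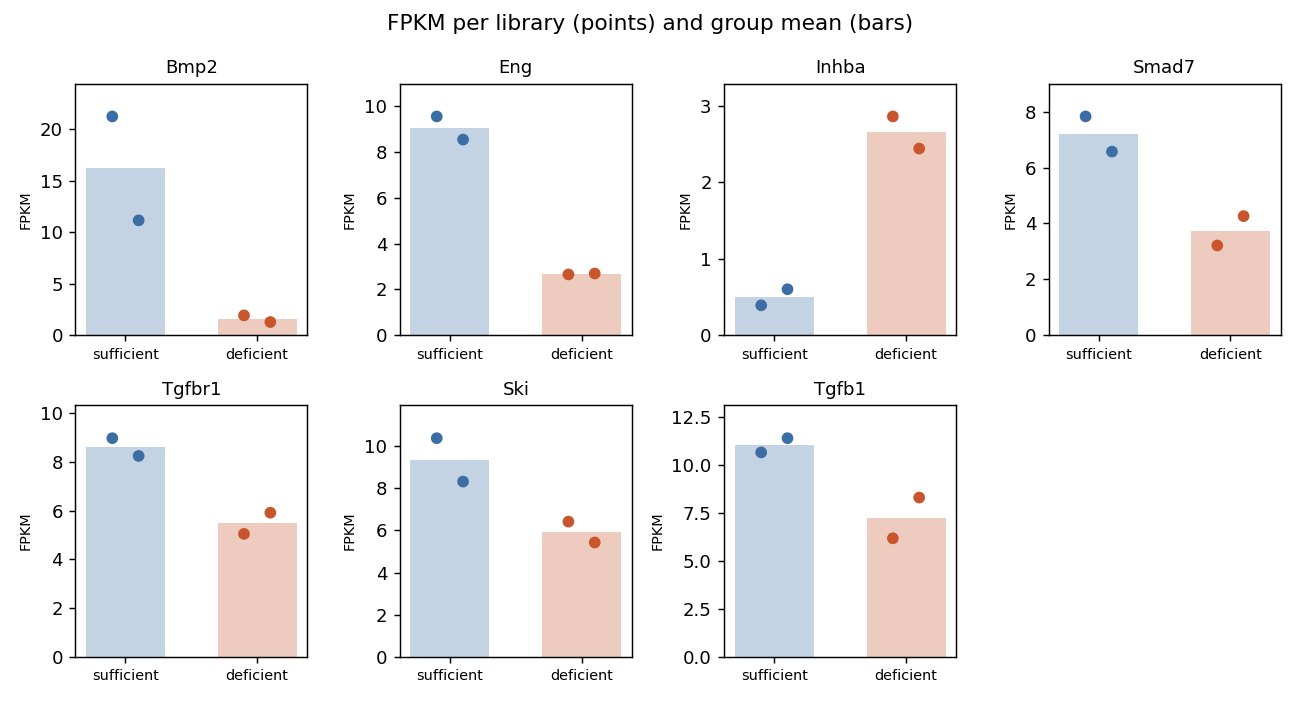
FPKM of the 7 genes with an unadjusted p under 0.05, with points for the libraries and bars for the mean of 2 libraries in each group. In 6 genes both Brg1-deficient libraries are below both controls, and in Inhba both are above.

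Of the chains of the TGF-β receptor, Tgfbr1 met the list criteria and Tgfbr2 did not, and the difference between the chains was not tested. Tgfbr1, the type I receptor, was at 8.98 and 8.25 FPKM in controls, against 5.05 and 5.92 FPKM in Brg1-deficient ILC3s. The 2 libraries of each group lay close together and the groups did not overlap. For Tgfbr1 the log2 fold change came to -0.57 (standard error 0.192, adjusted p = 0.328 by limma), with means of 8.62 ± 0.516 and 5.49 ± 0.615 FPKM (SD, n = 2 each). Tgfbr2, the type II receptor that binds TGF-β first, was at 21.1 and 31.4 FPKM in controls, against 25.4 and 27.3 FPKM in Brg1-deficient ILC3s. The values of the Brg1-deficient libraries lay inside the range of the controls. Tgfbr3 (betaglycan) was at 0.45 FPKM or less in every library.

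Eng encodes endoglin, a co-receptor for TGF-β and BMP9 that is best known from endothelial cells. It was at 9.55 and 8.54 FPKM in controls, against 2.65 and 2.69 FPKM in Brg1-deficient ILC3s. Both groups were tight and far apart, with means of 9.05 ± 0.714 and 2.67 ± 0.0283 FPKM (SD, n = 2 each), or a 3.39-fold higher level in controls. Eng differed by -1.45 on the log2 scale (standard error 0.199, adjusted p = 0.081 by limma), with a range of -1.52 to -1.38 over the 4 fits that omit a library. Of 10 endothelial markers, 7 were never above 1 FPKM, and Cdh5, Tek and Tie1 were at 0.29 FPKM or less in every library. Without overlap, 3 of the 10 (Kdr, Emcn and Egfl7) were lower in Brg1-deficient libraries and 1 (Plvap) was higher. These 4 were at 1.29 FPKM or less in every library, and the part of endothelial transcripts in the difference of Eng was not tested. The summed level of that list was 66.4 and 92.5 FPKM in controls and 68.4 and 67.6 FPKM in Brg1-deficient libraries, most of it Pecam1, which leukocytes also express. The sum of 10 macrophage and monocyte markers was 163 and 355 FPKM in controls and 120 and 315 FPKM in Brg1-deficient libraries, so it differed more between the libraries of a group than between groups. Without overlap, Adgre1 was lower, at 5.76 and 6.00 FPKM in controls against 2.09 and 3.67 FPKM. Fcgr1 was higher, at 0.60 and 0.80 FPKM against 2.48 and 1.71 FPKM. The part of macrophage transcripts in the difference of Eng was not tested. Eng overlaps Fpgs on the other strand, and Fpgs was at 3.96 and 6.06 FPKM in controls, against 8.98 and 6.62 FPKM in Brg1-deficient ILC3s, the opposite order. Whether reads were counted by strand is not given in the sources used here. Acvrl1 (ALK1), the type I receptor that works with endoglin, was at 1.73 and 0.78 FPKM in controls, against 0.68 and 0.56 FPKM in Brg1-deficient ILC3s. In Acvrl1 the control libraries differed more from each other than the second control did from the other group.

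Of the receptors for activins and BMPs, Acvr2a had the highest level. This type II receptor was at 11.3 FPKM in both controls, against 8.31 and 8.57 FPKM in Brg1-deficient ILC3s, without overlap. The locus of Acvr2a overlaps Orc4 on the other strand, which was at 84.8 to 90.8 FPKM in the 4 libraries. Acvr1b, the activin type I receptor, was at 0.84 and 1.55 FPKM in controls, against 1.31 and 0.94 FPKM in Brg1-deficient ILC3s. Acvr1 (ALK2), a type I receptor for BMPs, was at 0.80 and 1.16 FPKM in controls, against 1.27 and 2.08 FPKM in Brg1-deficient ILC3s. The BMP type II receptor Bmpr2 was at 0.71 to 1.01 FPKM. Bmpr1a, Bmpr1b and Acvr2b were at 0.52 FPKM or less in every library.

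Smad2, Smad3 and Smad4, which carry the TGF-β and activin signal, were above 5 FPKM in every library, and none of them met the list criteria. Smad2 was at 37.8 and 32.2 FPKM in controls, against 28.3 and 26.5 FPKM in Brg1-deficient ILC3s, without overlap. Smad3 was at 17.2 and 19.4 FPKM in controls, against 21.8 and 18.5 FPKM in Brg1-deficient ILC3s. Smad4, the partner shared with the BMP SMADs, was at 8.22 and 6.24 FPKM in controls, against 6.5 and 5.99 FPKM in Brg1-deficient ILC3s. In both Smad3 and Smad4 the groups overlapped.

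Of the BMP SMADs, Smad5 had the highest level. It was at 26.1 and 23.2 FPKM in controls, against 25.8 and 23.7 FPKM in Brg1-deficient ILC3s, with overlap. Smad1 was at 3.58 and 2.28 FPKM in controls, against 1.80 and 1.95 FPKM in Brg1-deficient ILC3s, without overlap but with a spread of 0.919 FPKM (SD, n = 2) between the controls. Smad9 was at 0.10 FPKM or less in every library.

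Among the genes that restrain the pathway, Smad7 and Ski were lower by the list criteria, and the others were not. Smad7, an inhibitory SMAD that blocks type I receptors and is itself induced by TGF-β, was at 7.83 and 6.57 FPKM in controls, against 3.21 and 4.26 FPKM in Brg1-deficient ILC3s. The Brg1-deficient mean was 51.9% of the control mean, and the groups did not overlap. Smad7 differed by -0.80 on the log2 scale (standard error 0.227, adjusted p = 0.251 by limma), with a range of -0.96 to -0.64 over the same kind of fits. The other inhibitory SMAD gene, Smad6, was at 0.33 FPKM or less. Ski, a corepressor that binds SMADs, was at 10.4 and 8.32 FPKM in controls, against 6.42 and 5.43 FPKM in Brg1-deficient ILC3s. Ski differed by -0.58 on the log2 scale (standard error 0.207, adjusted p = 0.355 by limma), and -0.43 without Brg1-sufficient library 1.

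The other corepressors were expressed at higher levels. Tgif1, a homeobox repressor that binds SMAD2 and SMAD3, was at 274 and 317 FPKM in controls, against 344 and 357 FPKM in Brg1-deficient ILC3s, above 97.7% of the protein-coding genes tested in controls. Its groups did not overlap. Skil, the SKI-like corepressor known as SnoN, was at 224 and 137 FPKM in controls, against 169 and 137 FPKM in Brg1-deficient ILC3s. The difference between the control libraries of Skil was larger than that between the group means. Tgif2 was at 19.0 and 17.4 FPKM in controls, against 24.9 and 17.9 FPKM in Brg1-deficient ILC3s, with overlap. The ubiquitin ligase genes Smurf1 and Smurf2 had low levels, and in Smurf2 the nearest libraries of the groups were at 4.13 and 4.18 FPKM. Smurf1 was at 0.94 and 1.92 FPKM in controls, against 2 and 1.8 FPKM, and Smurf2 at 3.36 and 4.13 FPKM in controls, against 4.18 and 4.95 FPKM. The 17 members tested with an unadjusted p of 0.05 or more had log2 fold changes between -0.45 (Acvrl1) and 0.42 (Acvr1), with adjusted p-values between 0.439 and 0.991 by limma.

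**Figure D4:**
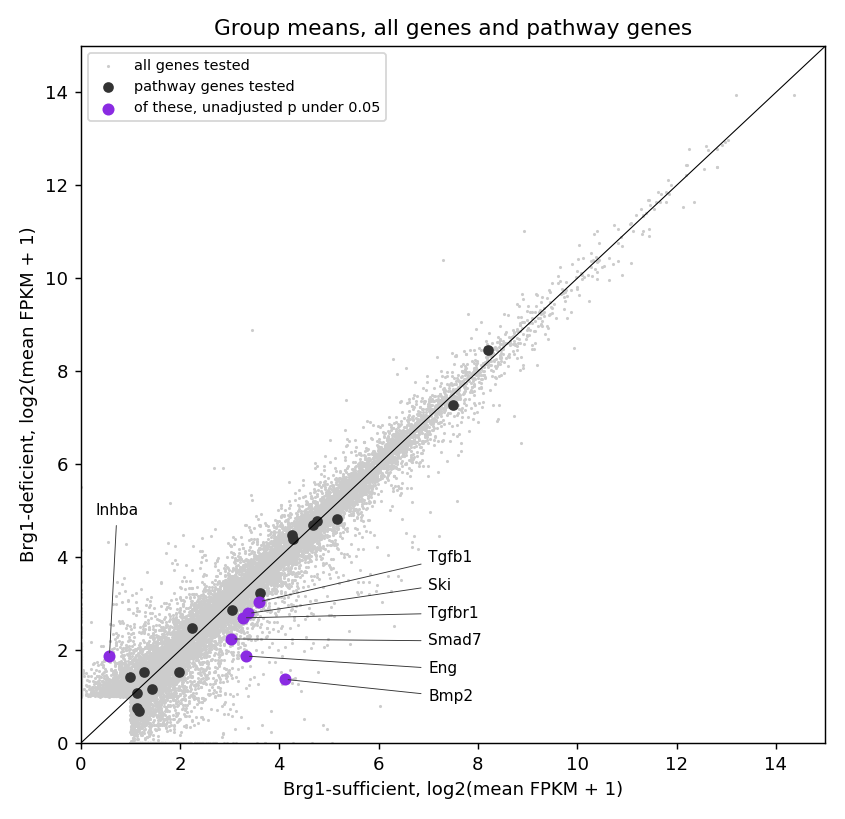
Mean of the 2 Brg1-sufficient libraries against the mean of the 2 Brg1-deficient libraries on the log2(mean FPKM + 1) scale, for all 14739 genes tested (grey), the pathway genes (black) and those with an unadjusted p under 0.05 (purple). Bmp2, Eng, Smad7, Tgfbr1, Ski and Tgfb1 lie below the line of equal means, Inhba lies above it, and Tgif1 and Skil at the upper right lie close to it.

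Promoter windows are shown for 5 of the 7 genes with an unadjusted p under 0.05, 4 lower and 1 higher. The RefSeq table used here, on GRCm38.p6, gives for each gene start the 250 bases before it and 50 after it. Some of its windows were left out, and 30 of the 42 members matched the windows used by symbol. Bmp2, the member with the largest difference, had no window, and that of Smad7 is not reported here. Capitals mark CAGAC on either strand, the core of the SMAD binding element, and GGCGCC, a GC-rich SMAD motif that reads the same on both strands, and for Tgfbr1 the first of its windows is given.
Eng, chr2:32646345-32646644, plus strand: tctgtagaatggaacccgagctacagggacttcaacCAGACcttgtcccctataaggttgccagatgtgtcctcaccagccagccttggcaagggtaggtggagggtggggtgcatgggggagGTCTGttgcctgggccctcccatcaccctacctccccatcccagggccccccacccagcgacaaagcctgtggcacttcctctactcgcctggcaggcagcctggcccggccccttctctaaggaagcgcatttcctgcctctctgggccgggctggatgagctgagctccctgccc
Tgfb1, chr7:25686752-25687051, plus strand: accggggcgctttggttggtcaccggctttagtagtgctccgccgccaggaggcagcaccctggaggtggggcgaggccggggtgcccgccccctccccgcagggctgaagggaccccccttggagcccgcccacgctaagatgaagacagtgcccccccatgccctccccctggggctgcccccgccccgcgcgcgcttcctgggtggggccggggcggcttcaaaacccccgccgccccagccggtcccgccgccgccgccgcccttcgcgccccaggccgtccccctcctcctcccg
Tgfbr1, chr4:47352972-47353271, plus strand: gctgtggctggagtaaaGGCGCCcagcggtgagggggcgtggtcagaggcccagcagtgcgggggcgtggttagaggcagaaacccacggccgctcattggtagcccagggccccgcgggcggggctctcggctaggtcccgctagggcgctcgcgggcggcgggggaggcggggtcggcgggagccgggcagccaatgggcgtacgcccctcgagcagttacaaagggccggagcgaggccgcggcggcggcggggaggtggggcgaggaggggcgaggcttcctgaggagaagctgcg
Ski, chr4:155222486-155222785, minus strand: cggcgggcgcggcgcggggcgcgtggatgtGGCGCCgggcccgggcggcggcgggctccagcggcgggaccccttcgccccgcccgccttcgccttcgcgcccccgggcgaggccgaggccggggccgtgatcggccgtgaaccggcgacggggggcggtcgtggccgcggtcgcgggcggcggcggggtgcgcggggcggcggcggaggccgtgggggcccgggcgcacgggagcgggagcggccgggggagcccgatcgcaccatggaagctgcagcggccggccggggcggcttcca
Inhba, chr13:16011601-16011900, plus strand: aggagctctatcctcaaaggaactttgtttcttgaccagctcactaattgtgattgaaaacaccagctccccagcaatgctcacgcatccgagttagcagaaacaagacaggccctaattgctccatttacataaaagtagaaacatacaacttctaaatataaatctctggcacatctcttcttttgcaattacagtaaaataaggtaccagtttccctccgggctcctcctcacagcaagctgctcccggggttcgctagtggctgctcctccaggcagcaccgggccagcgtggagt

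The Eng window held 2 matches to CAGAC, and the windows of Tgfbr1 and Ski held 1 match each to GGCGCC, with no overlap between the motifs. The windows of Tgfb1 and Inhba held neither. The second window of Tgfbr1, not shown, held 1 match to CAGAC and 0 to GGCGCC. Of all 32841 promoter windows used here, 49.6% held CAGAC on either strand and 11.9% held GGCGCC. None of the 5 windows held TGANTCA, the AP-1 site, which was in 7.81% of all windows. The GC content was 85.3% in the Ski window, 77.0% in Tgfb1, 74.7% in Tgfbr1, 63.3% in Eng and 47.7% in Inhba, where the median of all windows was 52.7%. The Ski window held 59 CpG dinucleotides, those of Tgfbr1 and Tgfb1 held 34 and 30, and those of Inhba and Eng held 7 and 6, with a median of 7 over all windows. Eng, on chromosome 2 from 32646595 to 32682669, and Tgfbr1, on chromosome 4 from 47353222 to 47414931, are on the plus strand. Ski, on chromosome 4 from 155154075 to 155222592, is on the minus strand. Tgfb1, on chromosome 7 from 25687002 to 25705077, and Inhba, on chromosome 13 from 16011851 to 16031621, are on the plus strand.

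A list of 107 other genes of the pathway was read from the same fit, 3 of them under older symbols, and 57 of them were tested. By the list criteria, 7 were lower and 2 were higher among the 41 genes above 5 FPKM by the same rule (17.1% and 4.88%, against 7.08% and 6.25% of all genes at that level). None of them (0 lower, 0 higher) passed an adjusted p of 0.05 in limma. At an unadjusted p under 0.05, 8 (14.0%) were lower and 3 (5.26%) were higher. Of all genes tested, 6.47% were lower and 6.12% were higher at that p. The median log2 fold change of the 57 genes was -0.07. Without Brg1-sufficient library 1 the criteria called 4 lower genes, without Brg1-deficient library 1 they called 1, and without Brg1-deficient library 2 they called 0. The 2 higher calls became 0 without either Brg1-deficient library.

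Of the 19 genes for latency, release and antagonists, 5 were tested and 4 reached the 5 FPKM of the list criteria. Of these 4, 2 were lower by the criteria, where 7.08% of all genes at that level were. Itgav, the integrin αV chain that pairs with β6 or β8 to release active TGF-β, was at 117 and 111 FPKM in controls, against 71.6 and 58.0 FPKM in Brg1-deficient ILC3s. Itgav differed by -0.81 on the log2 scale (standard error 0.158, adjusted p = 0.133 by limma). The partner genes Itgb6 and Itgb8 were at 0.74 FPKM or less in every library. Furin, the protease that cleaves the TGF-β precursor, was at 120 and 154 FPKM in controls, against 98.4 and 83.6 FPKM in Brg1-deficient ILC3s. Both genes were well above the median level in both groups, and neither overlapped between groups.

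Of the 16 other receptors and receptor regulators, 9 were tested, 5 reached 5 FPKM by the same rule, and Bambi was the only gene to meet the criteria. Bambi, a pseudoreceptor that dampens TGF-β and BMP signals, was at 8.5 and 7.8 FPKM in controls, against 5.01 and 4.73 FPKM in Brg1-deficient ILC3s (log2 fold change -0.64, standard error 0.188, adjusted p = 0.264 by limma). Among 16 SMAD cofactors and regulators, 14 were tested and 13 reached 5 FPKM. Of these, only Fbxo11 met the criteria, at 9.98 and 9.41 FPKM against 4.67 and 7.06 FPKM. Among 9 genes listed under the non-SMAD branch, all were tested and 8 reached 5 FPKM. Only Cited2 met the criteria, at 15.6 and 16.4 FPKM against 7.84 and 11.9 FPKM. Cited2 encodes a transcriptional coregulator and not a part of that branch, so no gene of the branch itself was called. In both Fbxo11 and Cited2, Brg1-deficient library 1 had the lowest value. Of 22 other ligands, only Gdf9 and Lefty1 reached the level for testing. Neither reached 5 FPKM, so neither could meet the criteria.

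Of 25 genes commonly used as readouts of TGF-β or BMP, 18 were tested, with a median log2 fold change of 0.06. Of these, 11 reached the 5 FPKM of the list criteria, and 2 were lower and 2 were higher by them. Of all genes at that level, 7.08% were lower and 6.25% were higher. Hey1, a transcriptional repressor that responds to both Notch and BMP, was at 7.96 and 3.68 FPKM in controls, against 1.34 and 1.28 FPKM in Brg1-deficient ILC3s. Bhlhe40 was at 1293 and 1121 FPKM in controls, against 767 and 687 FPKM in Brg1-deficient ILC3s. In the other direction, Cd69, a surface marker of tissue-resident lymphocytes, was at 1046 and 1055 FPKM in controls, against 1602 and 1742 FPKM in Brg1-deficient ILC3s. Nt5e, which encodes CD73, was at 35.5 and 45.5 FPKM in controls, against 64.7 and 54.6 FPKM in Brg1-deficient ILC3s. In log2 the fold changes were -1.49 for Hey1, -0.73 for Bhlhe40, 0.67 for Cd69 and 0.55 for Nt5e, with adjusted p-values of 0.2, 0.148, 0.143 and 0.326 by limma.

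Of the 18 target genes tested, 6 were lower and 4 were higher without overlap, against 20.2% and 24.4% of all genes tested. The target genes that follow are named after their values were seen. Klf10 and Klf11, which encode repressors induced by TGF-β, were among the 4 higher genes. Klf10 was at 50.3 and 35.4 FPKM in controls, against 57.5 and 59.7 FPKM in Brg1-deficient ILC3s, and Klf11 at 9.24 and 10.9 FPKM, against 13.5 and 11.9 FPKM. The BMP targets Id1 and Id3 were at 0.32 to 0.97 FPKM and at 1.99 to 5.26 FPKM, and in both genes the lowest and the highest value were in the controls. Id2 and Atoh8, of the same list, were among the 6 lower genes. Id2 was at 1400 and 1302 FPKM in controls, against 1002 and 1243 FPKM in Brg1-deficient ILC3s, and Atoh8 at 2.50 and 2.11 FPKM, against 1.48 and 0.55 FPKM. Junb was at 2221 to 2896 FPKM, with overlap between groups. Pmepa1, a feedback inhibitor induced by TGF-β, was at 2.46 and 0.84 FPKM in controls, against 0.23 and 0.49 FPKM in Brg1-deficient ILC3s, and it is counted among the receptor regulators. The integrin genes Itga1 and Itgae, which TGF-β induces in tissue-resident lymphocytes, were also chosen in this way. Itga1 was at 3.62 and 5.19 FPKM in controls, against 0.82 and 1.12 FPKM in Brg1-deficient ILC3s (log2 fold change -1.44, standard error 0.291, adjusted p = 0.142 by limma), and Itgae was at 1.2 and 1.12 FPKM against 0.74 and 0.36 FPKM. Itga1 is also a gene of ILC1s. Of the 10 ILC1 and NK cell markers, 6 were lower in the Brg1-deficient libraries, some of them shared with NKp46+ILC3s. The part of these cells in the difference of Itga1 was not tested.

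**Figure D5:**
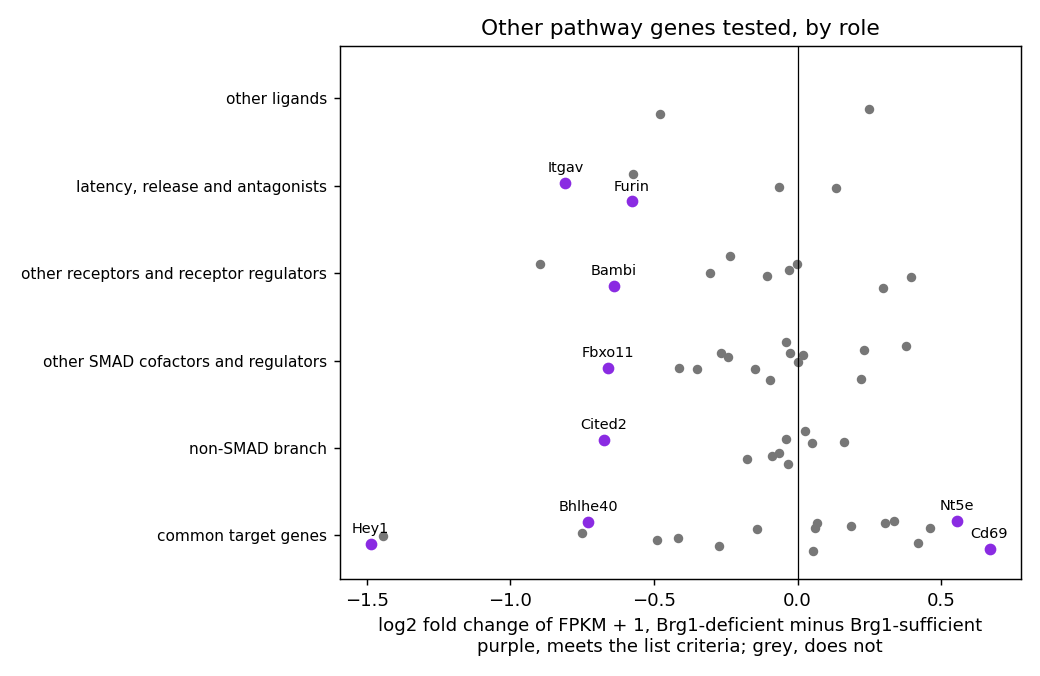
Difference in log2(FPKM + 1) between Brg1-deficient and Brg1-sufficient ILC3s for the 57 other pathway genes tested, 1 row for each role, with vertical scatter for legibility only. The 9 named genes in purple meet the list criteria, with Hey1 lowest at -1.49 and Cd69 highest at 0.67. Cited2, a transcriptional coregulator, is drawn in the row of the non-SMAD branch.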

How the data were processed

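Per the paper's methods and the labels, reads were mapped to GRCm38.p5 with STAR 2.5 and genes were quantified with RSEM 1.2 on GENCODE M16. The authors deposited 1 FPKM value per gene and library. The sorted values of the libraries agree within 1% at 99.3% of the 13693 ranks with a mean above 1 FPKM, as after quantile normalization, a step the sources used here do not name. The authors tested with edgeR. Counts were not used here, so depth is unknown and no counting error is given.

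Libraries were grouped by the genotype in their titles. Genes that averaged more than 1 FPKM in at least 1 group were tested with limma 3.58.1 (lmFit, eBayes with trend) in R 4.3.3 on log2(FPKM + 1), two-sided, with Benjamini-Hochberg adjustment over all of them. With 2 libraries against 2, an exact permutation test of a single gene cannot go below p = 0.333. Named members are all those tested, with fold changes for an unadjusted p under 0.05 or, without overlap, a log2 fold change beyond 0.5. Other pathway genes are named where they meet the list criteria, and exceptions are marked or, for partners of a named gene and ligands that reached the level for testing, given by range. The members and lists were chosen with earlier results of these data known. Gene positions are from GENCODE M21 on GRCm38. The test was checked on simulated data. Some items are not reported here.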

Additional observations from a re-analysis of the deposited data

How the results depend on the processing

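At an adjusted p of 0.05, all genes gave 33 lower and 12 higher calls. Without a filter on low values there were 0 and 0 (1400 and 1308 before adjustment), and likewise 0 and 0 in limma without trend (965 and 903 before adjustment). A filter at 5 FPKM gave 73 and 41, the replicate block gave 248 and 150, and leaving out any 1 library gave 0 and 0 (507 to 1675 lower and 735 to 1507 higher before adjustment). Members lower at an adjusted p under 0.05 went from 0 to 1 (Bmp2, adjusted p = 0.0431 in limma) with the filter above 5, and to 2 (Bmp2, 0.00142, and Eng, 0.0191) with the block. Over all alternatives the adjusted p from limma ran from 0.00142 to 0.535 for Bmp2 and from 0.0191 to 0.488 for Eng. The 6 members lower by the list criteria became 2, Bmp2 and Eng, with no filter, and 0 to 2 without 1 library. The 0 higher became 1 (Inhba) with a mean FPKM above 1 in the criteria, a level it reached in the Brg1-deficient group only. The 7 lower and 2 higher other pathway genes became 2 and 1 with no filter and 0 to 6 and 0 to 2 without 1 library, and the 2 higher became 1 in limma without trend. Limma without trend called 5 members lower, without Tgfb1. The adjustment ran over 44235 genes where no filter was used and over 14739 in the report. What moved the remaining counts was not tested.

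The median log2 fold change of the members was -0.0188 with no filter, which adds 18 members below the level for testing, -0.34 with the filter above 5, and -0.37 to -0.0353 without 1 library. The block is not backed by the labels. Cells of both donors shared hosts, so libraries could be paired by host, but the labels do not give the host. Over all genes, deviations of same-numbered libraries were not correlated (r = -0.000386 across 14739 genes), which cannot show that they are unrelated. The macrophage and monocyte sum was higher in library 2 of both groups (163 and 355 FPKM, 120 and 315 FPKM). The ILC1 and NK cell sum was higher in library 2 of controls only. Among the members and the 9 other pathway genes that met the list criteria, the block otherwise added Itgav and no other call (adjusted p = 0.0454 in limma). Quantile normalization and scaling to one median changed none of the calls of members by the list criteria. The deposited values already agreed within 1% at 99.3% of ranks, so these 2 settings could hardly differ from the main fit and do not test it. Without 1 library, the log2 fold change turned sign in members with overlapping groups, at -0.24 to 0.31 for Tgfbr2, -0.85 to 0.70 for Bmp4, -0.27 to 0.20 for Acvr1b, -0.35 to 0.0001 for Smad4, -0.0747 to 0.0881 for Smad5, -0.56 to 0.15 for Skil, -0.0108 to 0.58 for Smurf1 and -0.0234 to 0.43 for Tgif2. Bmp4 was at 0.12 with log2(FPKM + 0.1). A fit without 1 library assumes that the lone library varies like the others. Smarca4 stayed between -0.84 and -0.71.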

Other observations

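Ratios between members within a library do not depend on a single scale factor of that library. A step by rank, such as quantile normalization, can change them, because genes at different levels are then scaled unequally. The ratios were chosen after the values were seen and are given as values. The ratio of Tgfbr2 to Tgfbr1, the type II to the type I TGF-β receptor, was 2.35 and 3.80 in Brg1-sufficient and 5.02 and 4.62 in Brg1-deficient libraries. The ratio of Smad3, which carries the signal, to Smad7, which blocks it, was 2.19 and 2.96 in Brg1-sufficient and 6.79 and 4.34 in Brg1-deficient libraries. The ratio of the corepressor genes Tgif1 to Ski was 26.4 and 38.2 in Brg1-sufficient and 53.6 and 65.8 in Brg1-deficient libraries. The ratio of Smad2 to Smad3 was 2.21 and 1.66 in Brg1-sufficient and 1.30 and 1.43 in Brg1-deficient libraries. The ratios with Tgfbr1, Smad7 and Ski hold a gene already described as lower, so their order between the groups was fixed by the choice of genes. Smad2 was also described as lower without overlap, so the order of its ratio to Smad3 is not free of that choice either. No test was made.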
